A study of Gallus gallus with 14 samples.

Results

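Nitric oxide synthases make nitric oxide from arginine, and 4 of the 18631 genes in the table are described here across 14 chick retinas: NOS1, the calcium-dependent neuronal enzyme; NOS2, the inducible enzyme; and LYRM9 and NLK, which are listed after NOS2 on chromosome 19. They were taken by gene symbol, and they were chosen with lens and control values in view: the genes were chosen by how those values differed, so they are given as a description and without a test. No row of the table carries the symbol NOS3. All 4 passed the filter of at least 1 CPM (reads scaled to the size of the library) in at least 7 of 14 samples, as did 11132 genes in all. The samples were retinas of wild type White Leghorn chicks. In 7 of them (46, 47, 48, 51, 53, 54 and 55) the eye had worn a lens of -10 D for 6 days, fitted at 3 days of age, which moves the focus behind the retina and induces myopia. The other 7 (57, 58, 59, 62, 63, 64 and 65) were controls, and the labels do not say what control eyes wore or that each library came from a different chick.

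Nitric oxide diffuses between cells and binds soluble guanylate cyclase, which then makes cyclic GMP, and cyclic GMP acts on kinases, channels and phosphodiesterases. Neuronal synthase of the vertebrate retina is known mainly from subsets of amacrine cells and from other inner neurons, and drugs that block synthases or release nitric oxide alter eye growth in chick models of myopia. NOS2 needs no rise in calcium and is best known from macrophages and glia after immune stimulation. LYRM9 belongs to the small LYR motif proteins, most of which serve mitochondrial assembly. NLK is a serine and threonine kinase that acts on TCF and LEF factors of the Wnt pathway and on other transcription factors.

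The libraries held 32.3 to 42.5 M reads, estimated from the value of a single read. Retina markers (10 genes) served as a check of the tissue, and their summed level was 1292 to 1537 CPM in control and 1039 to 1554 CPM in lens retinas, with medians of 1446 and 1226 CPM. Limma, with p-values adjusted by Benjamini and Hochberg and a threshold of 0.05, called 102 of 11132 genes (0.916%) higher and 205 (1.84%) lower with the lens. The higher genes made up 33.2% of calls on the deposited scale and 56.3% to 59.6% on the 3 other scalings tried.

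The inducible synthase and both genes beyond it lay higher in lens retinas, and the neuronal synthase did not. The values of the 4 genes in each retina are plotted with their means.

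**Figure D1:**
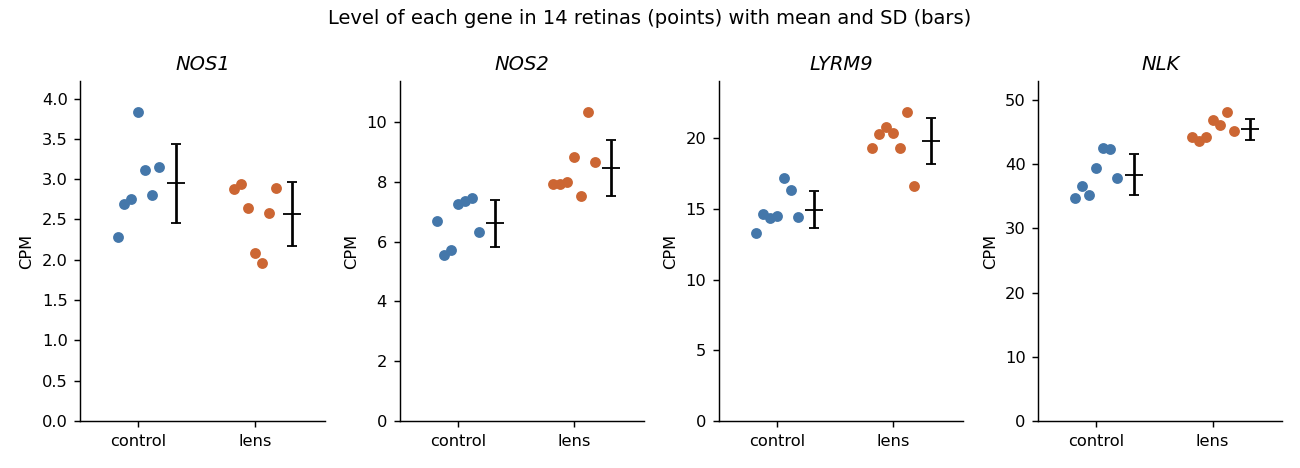
Level of each gene in CPM (vertical axes, from 0) in 7 control and 7 lens retinas, 1 point per retina, with the mean and SD of each group as bars. The lens points of NOS2 and NLK all lie above every control point, 6 of 7 do for LYRM9, and the groups of NOS1 overlap.

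NOS2 was measured at 5.54 CPM in the lowest control retina, 6.70 CPM in the median one and 7.46 CPM in the highest. In lens retinas the lowest value was 7.54 CPM, the median 7.996 CPM and the highest 10.3 CPM, in lens 54. All 7 lens values thus lay above every control, although the highest control (64) and the lowest lens retina (53) were close together. The mean was 6.62 ± 0.784 CPM in control against 8.46 ± 0.942 CPM with the lens (SD, n = 7 each), a ratio of 1.28 and a difference of 0.31 on the log2(CPM + 1) scale. In bulk retina, a change in the number of cells of a type and a change in RNA per cell cannot be told apart. These levels rested on an estimated 188 to 439 reads per library, for which counting alone gives a spread of about 6.05% of the mean. The spread between retinas was 11.8% of the mean in control and 11.1% in lens retinas. The deposited annotation marks the NOS2 gene as partial, as it does 307 of the 18631 genes (1.65%), so part of the transcript may not have been counted.

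LYRM9 was measured at 13.3, 14.5 and 17.2 CPM in the lowest, median and highest control retina, and at 16.7, 20.3 and 21.9 CPM in the lowest, median and highest lens retina. The groups overlapped through lens 55, which was below control 63 and above every other control, while the other 6 lens retinas lay above every control. Its mean was 14.97 ± 1.33 CPM in control against 19.8 ± 1.65 CPM with the lens (SD, n = 7 each), a ratio of 1.32 and a log2 difference of 0.38.

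NLK was measured at 34.7, 37.9 and 42.5 CPM in the lowest, median and highest control retina, and at 43.6, 45.1 and 48.2 CPM in the lowest, median and highest lens retina. Every lens retina again lay above every control. Its mean was 38.4 ± 3.18 CPM in control against 45.5 ± 1.65 CPM with the lens (SD, n = 7 each), a ratio of 1.18 and a log2 difference of 0.24. The lens retinas were closer to each other, with an SD of 3.63% of the mean against 8.29% in control. The groups of 2 of the 4 genes therefore did not overlap, with lens higher, as was so for 0.557% of all tested genes. The choice of genes used this contrast, so nothing is read from that count.

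NOS1 was measured at 2.29, 2.80 and 3.84 CPM in the lowest, median and highest control retina, and at 1.96, 2.64 and 2.94 CPM in the lowest, median and highest lens retina. The groups overlapped between 2.29 and 2.94 CPM, with 2 lens retinas below every control and 3 controls above every lens retina. The mean was 2.95 ± 0.486 CPM in control against 2.57 ± 0.397 CPM with the lens (SD, n = 7 each), a ratio of 0.87 and a log2 difference of -0.15. NOS1 rested on 71 to 149 reads per library. Counting alone gives a spread of about 9.99% of the mean at that depth, where the retinas spread by 16.5% in control and 15.5% in lens. These are spreads of single retinas, and the difference between the groups was not tested. Reads in the last part of NOS1 are also uncertain, since the next gene, FBXO21, overlaps it by 1626 bases on the same strand.

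The code that opens each title ends in a letter, L or R, that the labels do not explain. The direction of the difference was the same within both letters for all 4 genes. Because the same values chose the genes, nothing is read from that. With the letter L (5 control, 4 lens), NOS2 measured 6.68 CPM ± 0.704 (SD) and 8.77 CPM ± 1.118 (SD), and with the letter R (2 control, 3 lens) 6.44 CPM ± 1.27 (SD) and 8.04 CPM ± 0.566 (SD). LYRM9 differed by 0.47 (log2) within L and by 0.22 within R, where its values overlapped, and NLK by 0.27 and 0.18. NOS1 differed by -0.16 within L and by -0.13 within R. The letter itself did not choose the genes and could be tested, with the group as a term. In limma 0 of 11132 genes (0.0%) passed for R against L, and 355 had an unadjusted p under 0.05. The 4 genes each had an adjusted p of 1.00 in that test, with log2 differences between -0.08 ± 0.083 (SE, NOS2) and 0.01 ± 0.054 (SE, NLK).

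NOS2, LYRM9 and NLK form one stretch of chromosome 19, and their order and strands were read from the deposited coordinates on build GRCg6a. NOS2 spans 9342049 to 9361223 on the minus strand, LYRM9 spans 9361617 to 9405177 on the minus strand, and NLK spans 9405427 to 9445677 on the plus strand. LYRM9 thus lies beside NOS2 and upstream of it, 394 bases away on the same strand, so that its transcription runs towards NOS2. NLK is the next gene but one, and its start faces the start of LYRM9 across 250 bases. Whether the listed stop is the last base of a gene is not stated, so these distances can be off by 1. The other neighbour of NOS2 is KSR1, a scaffold protein of the Ras and ERK pathway, on the plus strand, whose end faces the end of NOS2 across 3511 bases. NOS1 lies on chromosome 15, from 11550592 to 11610256 on the plus strand.

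The synthases sit in a similar setting. On chromosome 19 the table lists WSB1, KSR1 and NOS2 in that order, with 1 unnamed locus between WSB1 and KSR1. On chromosome 15 it lists WSB2, KSR2 and NOS1, with the replication factor RFC5 between WSB2 and KSR2. WSB1 and WSB2 are SOCS box proteins that take part in ubiquitin ligation, and KSR1 and KSR2 are paralogous scaffolds. The WSB and KSR genes are on the plus strand in both places, whereas NOS2 is on the minus strand and NOS1 on the plus strand. The map of both regions shows this order.

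**Figure D2:**
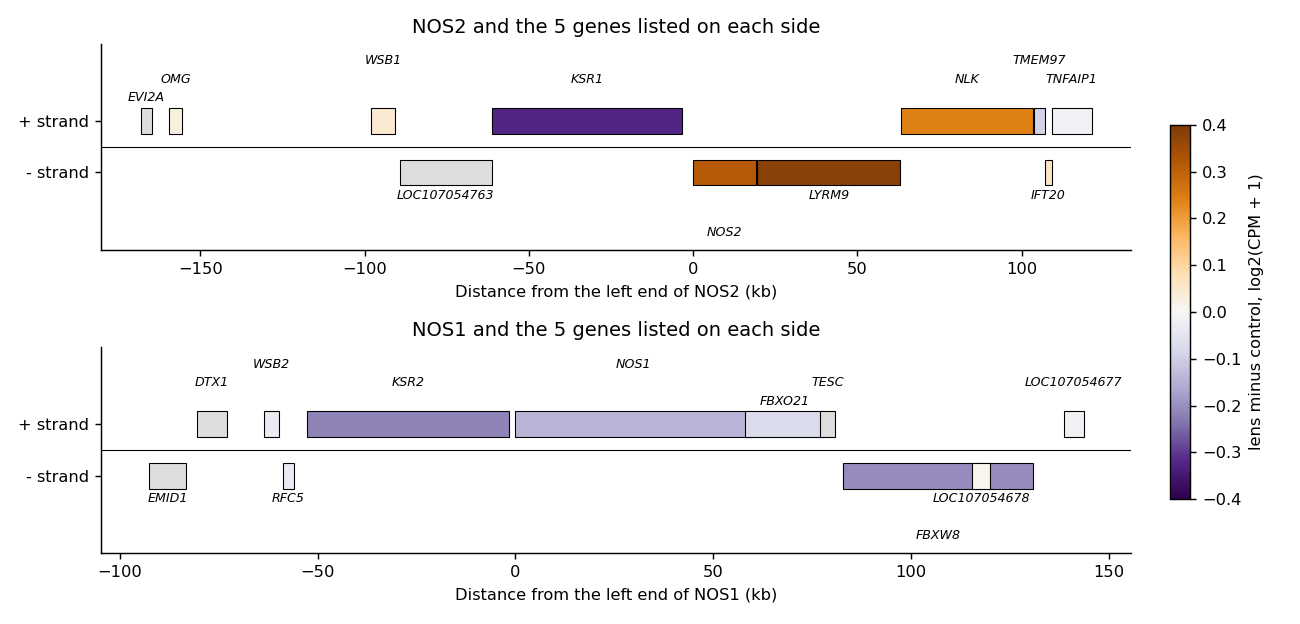
Genes of the regions around NOS2 (top) and NOS1 (bottom) by strand, with the distance from the left end of the synthase gene in kb on the horizontal axis and the lens minus control difference, on the log2(CPM + 1) scale, as colour. Grey genes were below the filter. NOS2, LYRM9 and NLK are orange (higher in lens retinas) beside KSR1 in purple (lower), and around NOS1 the genes KSR2 and FBXW8 (-0.22 and -0.20) are a lighter purple and the other tested neighbours pale.

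KSR1, which was not among the chosen genes, fell in lens retinas. It was measured at 42.8, 49.1 and 50.96 CPM in the lowest, median and highest control retina and at 34.5, 37.9 and 41.6 CPM in the lowest, median and highest lens retina, and every lens retina lay below every control, as for 0.97% of tested genes. Its mean went from 47.7 ± 2.98 CPM to 38.0 ± 2.15 CPM (SD, n = 7 each), which is -0.32 ± 0.048 on the log2 scale (SE, limma adjusted p = 0.000708). The adjusted p was 0.000228 to 0.00250 over its 10 alternatives, and no omission of a single library ended the call.

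Of the 8 other genes within 5 places of NOS2, 6 were tested, 1 was lower (KSR1), 0 were higher and 5 did not pass. Among all tested genes 1.84% were lower and 0.916% higher in limma at the adjusted threshold of 0.05. At an unadjusted p under 0.05, KSR1 was again the 1 lower gene and 0 were higher, where 12.5% of all tested genes were lower and 3.67% higher. The median log2 fold change of the 6 was 0.01, against -0.04 for all tested genes. On the far side of NLK, 110 bases away, TMEM97, a membrane protein known as the sigma 2 receptor, measured 2.32 ± 0.286 CPM in control against 2.15 ± 0.526 CPM with the lens (SD, n = 7 each) (limma adjusted p = 0.708). IFT20, which serves transport in cilia, measured 8.42 CPM ± 1.01 (SD, n = 7) and 8.79 CPM ± 0.520 (SD, n = 7) (limma adjusted p = 0.731). TNFAIP1, beyond it, had a log2 fold change of -0.02 ± 0.071 (SE, limma adjusted p = 0.934), whose sign turned with the 3 other scalings. TMEM97 and IFT20 overlap by 145 bases on opposite strands, and the strand setting of the counting is not given in the sources used here. On the side of KSR1, WSB1 had 0.05 ± 0.059 (SE, limma adjusted p = 0.762) and the myelin glycoprotein gene OMG 0.03 ± 0.088 (SE, limma adjusted p = 0.914). EVI2A and LOC107054763 were below the filter.

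Around NOS1, 7 of the 10 neighbours were tested and 0 passed in limma, where 1.84% of all tested genes were lower and 0.916% higher. KSR2 and FBXW8 were lower at an unadjusted p under 0.05, as were 12.5% of all tested genes. KSR2 measured 1.96 ± 0.367 CPM in control against 1.55 ± 0.327 CPM with the lens (SD, n = 7 each), that is -0.22 ± 0.098 on the log2 scale (SE, adjusted p = 0.282). FBXW8, a substrate receptor of a ubiquitin ligase, had -0.20 ± 0.079 (SE, adjusted p = 0.194). FBXO21, also an F-box protein, had -0.07 ± 0.069 (SE, adjusted p = 0.659), WSB2 -0.03 ± 0.057 (SE, adjusted p = 0.827) and RFC5 -0.04 ± 0.099 (SE, adjusted p = 0.903). LOC107054678, inside FBXW8, and LOC107054677 had 0.01 and -0.02. EMID1, DTX1 and TESC were below the filter. The retinas behind these differences are plotted gene by gene.

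**Figure D3:**
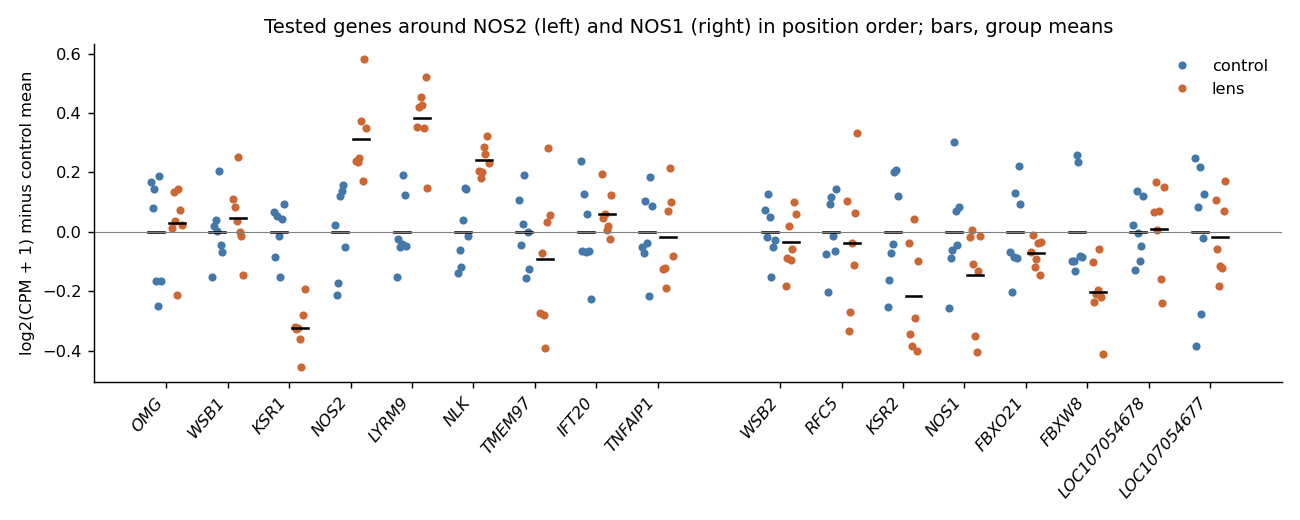
Tested genes around NOS2 (left) and NOS1 (right) in position order, with log2(CPM + 1) minus the control mean of the gene on the vertical axis, 1 point per retina and bars at group means. The lens points of KSR1 lie below every control, those of NOS2 and NLK above every control, and those of TMEM97, IFT20 and TNFAIP1 overlap the controls.

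The genes were chosen by how the groups differed, which can also depend on the spread within a group. Whether pairs of them varied together within a group is not known to have entered the choice. Pairs of the 4 genes were correlated over the 7 control and over the 7 lens retinas, 12 correlations in all, on the log2(CPM + 1) scale. In control retinas LYRM9 and NLK varied together, with Pearson's r = 0.90 (n = 7, exact permutation p = 0.00377, adjusted p = 0.0452) and Spearman's rho = 0.89 (exact permutation p = 0.0123, adjusted p = 0.148). Without the 2 retinas farthest from the LYRM9 median, controls 63 and 64, r was 0.62 (n = 5), where the smallest exact permutation p is 0.0167 and a single pair cannot pass after adjustment. In lens retinas the same pair had r = 0.31 (n = 7, exact permutation p = 0.534, adjusted p = 0.641) and rho = 0.21 (exact permutation p = 0.661, adjusted p = 0.722). The lens r depended on the scaling, at 0.66 with TMM or median-of-ratios factors and 0.36 after quantile normalization. In control retinas r was 0.91, 0.91 and 0.82 on these scalings. The difference between the groups was not tested.

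NOS2 and NLK had r = 0.75 in control (n = 7, exact permutation p = 0.0639, adjusted p = 0.256) and rho = 0.71 (exact permutation p = 0.0881, adjusted p = 0.328). In lens retinas they had r = 0.75 (n = 7, exact permutation p = 0.0373, adjusted p = 0.224) and rho = 0.61 (exact permutation p = 0.167, adjusted p = 0.400). Neither passed after adjustment, and without the 2 retinas farthest from the NOS2 median r was 0.75 in control and -0.17 in lens retinas. NOS2 and LYRM9, which adjoin, had r = 0.51 in control and 0.31 in lens retinas (n = 7 each, exact permutation adjusted p = 0.485 and 0.641). The pairs with NOS1 had r between -0.58, with NLK in lens retinas, and 0.52, with NLK in control (exact permutation adjusted p = 0.485 for both), and none passed. The plots of neighbour against neighbour show the separate groups.

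**Figure D4:**
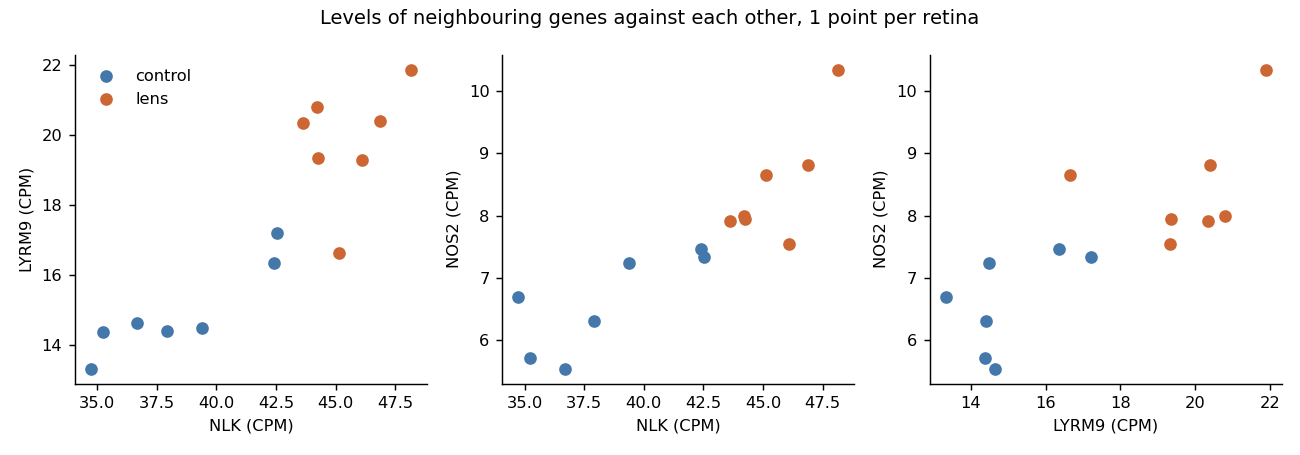
Level in CPM of LYRM9 against NLK (left), NOS2 against NLK (middle) and NOS2 against LYRM9 (right), 1 point per retina, control and lens in separate colours. Control and lens points form separate clouds, so no correlation is given over both; 2 controls at an NLK level above 42 CPM also have the highest LYRM9 levels of their group.

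Over all 14 retinas with the mean of each group removed, r was 0.67 for LYRM9 and NLK, 0.42 for NOS2 and LYRM9, and 0.71 for NOS2 and NLK. The table holds 812 pairs of adjacent tested genes, LYRM9 and NLK among them, whose starts face each other across fewer than 1000 bases. Their median r was 0.11, with quartiles of -0.14 and 0.36. For the 615 tested same-strand pairs as close, such as NOS2 and LYRM9, the median was 0.15 and the quartiles -0.11 and 0.41. The pairs were not matched for level. Counting spread is larger for low genes, and its part in these r was not tested. All of these points share libraries, so the values are a description.

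Ratios between the genes within a retina describe how evenly they differed. LYRM9 stood at 0.390 ± 0.0145 (SD, n = 7) of the NLK level in CPM in control retinas and at 0.436 ± 0.0347 (SD, n = 7) in lens retinas. Lens 55 had the lowest lens ratio, 0.369, within the control range of 0.368 to 0.408. NOS2 stood at 0.172 ± 0.0138 (SD, n = 7) and 0.186 ± 0.0155 (SD, n = 7) of NLK, and at 0.443 ± 0.0473 (SD, n = 7) and 0.428 ± 0.0509 (SD, n = 7) of LYRM9, with wide overlap. These ratios are not per length and say nothing of which gene has more transcripts.

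For each of the 4 genes, the 3 named genes with the most similar pattern were sought among 10115 tested genes, by Pearson's r over the 14 retinas with group means removed. The highest was TRPV2, a cation channel gene that also lies on chromosome 19 (6724905 to 6766696), with r = 0.93 to NLK, followed by CGGBP1, a CGG repeat binding protein, at 0.90 and the kinesin KIF13B at 0.87. Nearest to NOS2 were the small GTPase RND2 at 0.87, SPATA1 at 0.86 and TRIM67 at 0.84. Nearest to LYRM9 were NSMF, which signals from NMDA receptors to the nucleus, at 0.87, the sugar phosphate exchanger SLC37A1 at 0.85 and the DNA polymerase POLN at 0.84. Nearest to NOS1 were TNFRSF11A, the RANK receptor, at 0.81, PRCC at 0.81 and the spectrin SPTB at 0.80. SPATA1 rose in lens retinas, from 1.31 ± 0.271 CPM to 2.06 ± 0.352 CPM (SD, n = 7 each) (limma adjusted p = 0.0235), and the other 11 did not pass. As the highest of many values over 14 retinas, these r carry no test.

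Listed genes that supply, hold and answer the synthases, partners of NLK and other LYR motif proteins mostly did not pass the test. Of 113 symbols in 9 lists, 98 had a row and 68 were tested. In limma 2 of these 68 were lower in lens retinas (SNTB1 and JAK1), where 1.84% of all tested genes were lower, 0 were higher and 66 did not pass. At an unadjusted p under 0.05, 12 were lower (17.6%, against 12.5% of all tested genes) and 0 higher. The median log2 fold change of the 68 was -0.04, as it was for all tested genes. The lists were chosen with earlier results of these data known, so their counts are a description.

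**Figure D5:**
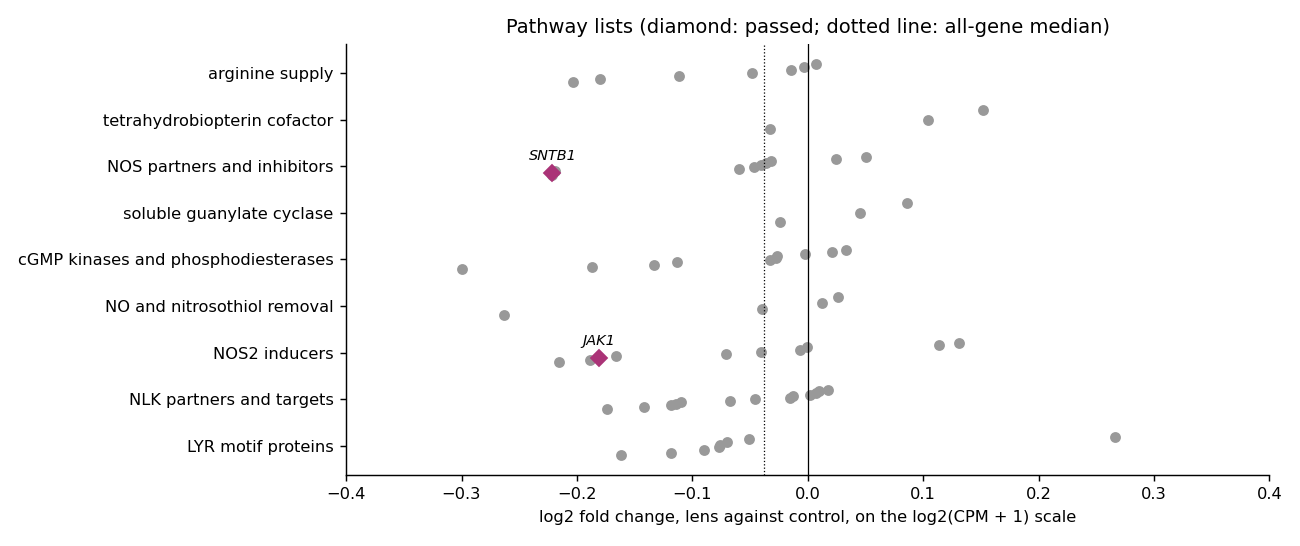
Log2 fold change of lens against control retinas on the log2(CPM + 1) scale (horizontal axis) for the tested genes of 9 lists (rows), 1 point per gene. Diamonds mark the 2 genes that passed, SNTB1 and JAK1; the dotted line is the median of all tested genes at -0.04.

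For the substrate, 10 of 13 genes of arginine supply had a row, 7 were tested and 0 passed. Their median log2 fold change was -0.05. At an unadjusted p under 0.05, 1 was lower (ARG2), as were 12.5% of all tested genes. The arginine transporter SLC7A1 measured 14.9 ± 1.06 CPM in control against 14.4 ± 1.53 CPM with the lens (SD, n = 7 each). ARG2, the arginase that competes with synthases for arginine, measured 40.6 CPM ± 3.94 (SD, n = 7) and 35.9 CPM ± 5.02 (SD, n = 7), at -0.18 ± 0.080 (SE, limma adjusted p = 0.274). For the cofactor tetrahydrobiopterin, 3 of 8 genes were tested and 0 passed (0 at an unadjusted p under 0.05), with a median of 0.10, and PTS, which makes a precursor of it, had 0.15 ± 0.096 (SE, limma adjusted p = 0.470).

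Among partners and inhibitors of the synthases, 10 of 18 were tested. In limma 1 fell, where 1.84% of all tested genes were lower, and 9 did not pass. Their median was -0.04. At an unadjusted p under 0.05, 2 were lower (SNTB1 and NOS1AP), as were 12.5% of all tested genes. The gene that fell was SNTB1, a syntrophin of the family of adaptors that anchor NOS1 in muscle. It was measured at 47.7 to 56.7 CPM in control and 39.1 to 46.6 CPM in lens retinas. Every lens retina lay below every control, as for 0.97% of tested genes. The log2 fold change of SNTB1 was -0.22 ± 0.046 (SE, limma adjusted p = 0.0125), and neither an alternative nor the omission of a single library ended the call. Its 10 alternatives spanned 0.00897 to 0.0489, just under the threshold with TMM (adjusted p = 0.0489) and median-of-ratios factors (adjusted p = 0.04875). NOS1AP, the adaptor that binds NOS1, measured 10.6 ± 1.504 CPM in control against 8.92 ± 1.07 CPM with the lens (SD, n = 7 each) (limma adjusted p = 0.225). The chaperone HSP90AA1 had -0.22 ± 0.11 (SE, limma adjusted p = 0.310). DDAH1, which degrades a natural inhibitor of the synthases, had -0.04 ± 0.079 (SE, limma adjusted p = 0.871).

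For the receptor of nitric oxide, soluble guanylate cyclase, the subunit genes GUCY1A3, GUCY1A2 and GUCY1B3 had log2 fold changes of 0.09 ± 0.056 (SE), 0.05 ± 0.046 (SE) and -0.02 ± 0.043 (SE), and 0 of these 3 passed in limma (adjusted p = 0.493, 0.682 and 0.842, and 0 at an unadjusted p under 0.05). Of the cyclic GMP kinases and phosphodiesterases outside photoreceptors, 10 of 12 were tested and 0 passed, while 4 had an unadjusted p under 0.05, all lower, as had 12.5% of all tested genes. PRKG1, the type I kinase, measured 9.58 ± 0.966 CPM in control against 7.64 ± 1.25 CPM with the lens (SD, n = 7 each), at -0.30 ± 0.088 (SE, limma adjusted p = 0.0796). PDE3A, a phosphodiesterase that cyclic GMP inhibits, had -0.11 ± 0.031 (SE, limma adjusted p = 0.0620). PDE3A passed where genes had to reach 5 CPM (adjusted p = 0.0392) or libraries were weighted by their quality (adjusted p = 0.0435). Its 10 alternatives spanned 0.0392 to 0.357, and of the omissions of a single library that of control 62 let it pass. The other nonphotoreceptor phosphodiesterases with an unadjusted p under 0.05 were PDE10A and PDE11A. Of 7 genes that remove nitric oxide and nitrosothiols, 4 were tested and 0 passed (0 at an unadjusted p under 0.05). TXNRD1, which had the smallest p of them, had -0.26 ± 0.24 (SE, limma adjusted p = 0.645), with control 57 far above the others.

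Of genes that act in the induction of NOS2 or restrain it, 10 of 18 were tested. In limma 1 fell, where 1.84% of all tested genes were lower, 0 rose and 9 did not pass. Their median was -0.06. At an unadjusted p under 0.05, 3 were lower (JAK1, IFNGR1 and the inhibitor NFKBIA), as were 12.5% of all tested genes. The gene that fell was JAK1, a kinase of interferon receptors, at -0.18 ± 0.036 (SE, limma adjusted p = 0.00835). It was measured at 74.5 to 82.2 CPM in control and 65.3 to 72.2 CPM in lens retinas. Every lens retina lay below every control, as for 0.97% of tested genes. JAK1 did not pass when scaled by TMM (adjusted p = 0.0561) or by median-of-ratios (adjusted p = 0.0543), and its 10 alternatives spanned 0.00532 to 0.0561. The interferon receptor IFNGR1 had -0.17 ± 0.056 (SE, limma adjusted p = 0.137). Macrophage and microglia markers, cells in which NOS2 is best known, summed to 7.37 to 10.9 CPM in control and 8.20 to 11.7 CPM in lens retinas over the 11 of 12 that had a row, and 8 of these were under 1 CPM on average. The 3 that were tested, CSF1R, CD74 and PTPRC, did not pass, and CSF1R measured 3.47 ± 0.396 CPM in control against 3.49 ± 0.699 CPM with the lens (SD, n = 7 each). Of those under the filter, TREM2 measured 0.200 ± 0.0851 CPM in control against 0.314 ± 0.0646 CPM with the lens (SD, n = 7 each), with 4 lens retinas above every control. C1QA, C1QB and C1QC had lens to control ratios of 1.53, 1.25 and 1.58 with overlap, on control means of 0.182, 0.295 and 0.272 CPM. MARCO was listed at 0 in every control and above 0 in 3 lens retinas, at no more than 0.0483 CPM. LAPTM5 and SPI1 had ratios of 1.03 and 0.980. MPEG1 went the other way, with a ratio of 0.639 and 2 lens retinas below every control. The part of these markers in the values of NOS2 was not tested.

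For the kinase, 13 of 18 partners and targets of NLK were tested and 0 passed, with a median of -0.05. At an unadjusted p under 0.05, 2 were lower, as were 12.5% of all tested genes. FOXO1, a transcription factor that NLK phosphorylates, had -0.17 ± 0.058 (SE, limma adjusted p = 0.135). Of other LYR motif proteins, 8 of 13 were tested and 0 passed (0 at an unadjusted p under 0.05), with a median of -0.08. LYRM7, an assembly factor of respiratory complex III, had 0.27 ± 0.15 (SE, limma adjusted p = 0.395). It lies on chromosome Z, and with W expression as a term it had 0.17 (limma adjusted p = 0.284).

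Of 10 amacrine cell markers 4 fell in limma, 0 rose and 6 did not pass, where 1.84% of all tested genes were lower. Their median log2 fold change was -0.15, against -0.04 for all tested genes. Those that fell were SLC32A1 and SLC6A9, transporters of inhibitory transmitters, and the transcription factors TFAP2B and MEIS2. The count was 0 after quantile normalization and 1 when scaled by TMM or by median-of-ratios. Leaving out 1 library gave 2 to 4, with 2 without control 65, lens 48 or lens 53. SLC6A9 (limma adjusted p = 0.0466) passed in 5 of 10 alternatives and 4 of 14 omissions of a library. MEIS2 (limma adjusted p = 0.0237) passed in 7 and 11, TFAP2B (0.0178) in 7 and 14, and SLC32A1 (0.0207) in 9 and 14. On the deposited scale, the summed level of the markers was 718 to 783 CPM in control and 667 to 712 CPM in lens retinas, without overlap. The sum was not taken on the other scalings. GAD1, which did not pass (limma adjusted p = 0.222), made up 326 CPM of the sum on average in control. Of the 10 retina markers 2 fell, 0 rose and 8 did not pass, with a median of -0.09. The 2 were photoreceptor genes, ARR3 at -0.55 ± 0.098 (SE, limma adjusted p = 0.00352) and PDE6C at -0.32 ± 0.053 (SE, limma adjusted p = 0.00225), and both passed in each of 10 alternatives and 14 omissions of a library. The part of these markers in the values of NOS1 and of the other genes was not tested. Markers of the retinal pigment epithelium summed to 21.7 to 26.6 CPM in control and 19.0 to 27.9 CPM in lens retinas over 8 genes. MITF made up 19.1 CPM of the sum on average in control, and 6 of the 8 were under 1 CPM on average. These 6 had lens to control ratios of 1.02 (PMEL) to 1.89 (BEST1), with overlap. The 2 that were tested, MITF and RPE65, had ratios of 0.927 and 0.856 and did not pass. Of 12 blood and endothelium markers 5 had a row, and none of the haemoglobin symbols did, so blood was not measured by this list. The 5 summed to 47.8 to 69.1 CPM in control and 45.9 to 66.6 CPM in lens retinas. KDR and PECAM1 averaged 38.4 and 19.4 CPM in control, and the other 3 were under 1 CPM on average.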

How the data were processed

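The deposited values, 1 table in CPM that the authors had normalized, were steps of 1 read (93.5% to 94.7% of low values within 0.02 of a whole read) with 0.0001 added to every entry. No count model was used. Per the submitters' processing notes, STAR, Partek and the build GRCg6a were used, and per the labels' protocols libraries were stranded and depleted of ribosomal RNA. How reads were counted, and with which strand setting, is not given in the sources used here. Listed genes held 32.9% to 34.2% of the scaling total in control libraries and 31.7% to 33.25% in lens libraries.

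A gene was tested if 7 of 14 samples reached 1 CPM. Limma 3.58.1 in R 4.3.3 was run on log2(CPM + 1), with a trend on mean level, and p-values were adjusted over all 11132 genes by the Benjamini-Hochberg method. Fold changes on that scale understate changes of low genes. The p-values measure the spread between these samples, which may be technical. Correlations were tested by exact two-sided permutation. The code was tested on simulated data. Groups came from sample titles. The 4 genes and the lists were chosen with earlier results of these data known. Named genes were the 4, listed genes past the threshold (or the smallest p of a list with none), 5 neighbours on each side of NOS1 and NOS2, and the 3 genes most like each of the 4; other list genes were named after their values were seen. Chromosome names came from the RefSeq gene table of GRCg7b, and coordinates are as deposited. Alternatives were a pseudocount of 0.1, filters of 5 CPM and none, 3 scalings, a robust prior, array weights, the letter of the title, expression of W chromosome genes, and leaving out each library.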

Additional observations from a re-analysis of the deposited data

Results flagged for a closer look

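In 4 of the 52 groups of 7 values examined (26 genes in 2 groups), 1 retina lay far from the rest, and chance gives about 1 such group in 20. None of these was a group of NOS1, NOS2, LYRM9 or NLK. TXNRD1 measured 18.6 CPM in control 57, where the next highest control had 6.16 CPM. LYRM7 measured 4.92 CPM in control 65, where the next had 3.42 CPM. In lens 51, the lowest of its group for both genes, PTS measured 4.03 CPM (next 4.799 CPM) and OMG 1.76 CPM (next 2.23 CPM).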

How the results depend on the processing

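The log2 differences of the 4 genes, which were chosen by these values and are given as a description, kept their direction in every setting tried. In the main setting they were -0.15 for NOS1, 0.31 for NOS2, 0.38 for LYRM9 and 0.24 for NLK. Over the alternatives that kept all libraries they ranged from -0.19 to -0.11 for NOS1 and from 0.32 to 0.36 for NOS2. For LYRM9 the range was 0.39 to 0.42 and for NLK 0.24 to 0.28. They moved by less than the spread between retinas. Leaving out 1 library gave -0.19 to -0.10, 0.27 to 0.34, 0.36 to 0.42 and 0.22 to 0.27. Among all genes 158 were higher and 107 lower with TMM or median-of-ratios factors, and 157 and 122 after quantile normalization. Leaving out 1 library gave 83 to 110 higher and 147 to 324 lower genes, with 324 without lens 55. Of listed genes 1 was lower with TMM or median-of-ratios factors, and leaving out 1 library gave 2 to 3. After quantile normalization 0 pairs of the 4 genes correlated past the threshold, against 1 otherwise; without the 2 farthest retinas the number was also 0, but 5 retinas are too few for a single pair to pass. Reversed correlations were those in lens retinas of NOS1 with NOS2 (-0.63), NOS2 with LYRM9 (-0.71), NOS2 with NLK (-0.17) and LYRM9 with NLK (-0.18) without the 2 farthest retinas, and of NOS1 with LYRM9 (0.081) after quantile normalization. Small fold changes of genes that did not pass turned sign. With TMM factors, median-of-ratios factors and quantile normalization TNFAIP1 had 0.024, 0.023 and 0.014, WSB2 0.0062, 0.0061 and 0.0031, and LOC107054677 0.0084, 0.0083 and 0.0024. LOC107054677 had 0.0091 with the letter as a term and LOC107054678 had -0.0073 with W expression as a term. Leaving out 1 library gave -0.012 to 0.070 for OMG, -0.057 to 0.013 for TNFAIP1, -0.098 to 0.013 for RFC5, -0.017 to 0.051 for LOC107054678 and -0.083 to 0.023 for LOC107054677. The cause of these changes was not tested. No paired analysis was possible because the groups share no replicate number. Low read numbers limit NOS1, KSR2 and the untested genes.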

Other observations

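Listed genes below the filter were measured at low levels in both groups. GCH1, which starts tetrahydrobiopterin synthesis, had 0.270 ± 0.135 CPM in control against 0.338 ± 0.0681 CPM with the lens (SD, n = 7 each). ASS1, which recycles citrulline to arginine, had 0.231 CPM ± 0.118 (SD, n = 7) and 0.247 CPM ± 0.0837 (SD, n = 7). The complement gene C1QC, a microglia marker, had 0.272 CPM ± 0.164 (SD, n = 7) and 0.430 CPM ± 0.230 (SD, n = 7), and the groups overlapped. MPEG1, of the same marker list, had 0.110 CPM ± 0.0742 (SD, n = 7) and 0.0702 CPM ± 0.0470 (SD, n = 7), also with overlap. The highest IL6 value was 0.105 CPM among controls and 0.0242 CPM among lens retinas.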
